A study of Mus musculus with 6 samples.

Results

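The cyclin-dependent kinase (CDK) inhibitor genes here are 6 genes of the CIP/KIP and INK4 families: Cdkn1a, Cdkn1b, Cdkn1c, Cdkn2b, Cdkn2c and Cdkn2d. They were taken by symbol from the deposited expression table, out of 21397 genes. The rule used their symbols and no measured value, but the set was proposed with earlier results of these data known. Cdkn2a, another INK4 gene, is not in the set, so the INK4 values below do not cover the whole family. The RNA came from mouse small intestinal organoids, epithelial cultures grown from crypts, of adult Fpr2f/f mice on a C57BL/6J background. These mice carry floxed alleles of the gene for formyl peptide receptor 2, and no Cre driver is named for either group. Both groups shared this genotype and were collected on day 5. The Control group received 0.1% DMSO, the vehicle, which the MMK-1 group shared at the same concentration. The MMK-1 group received MMK-1, a synthetic peptide agonist of formyl peptide receptor 2, at 1 μM according to the protocol text, although the treatment label of the same samples writes 1 mM. Each group had 3 libraries, each of organoids pooled from 3 mice by the study's account, and whether the libraries of a group share mice is not given in the sources used here. The p-values below therefore measure the spread between these libraries, which may be technical.

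CDK inhibitors restrain the kinases that drive the cell cycle. The CIP/KIP proteins p21 (Cdkn1a), p27 (Cdkn1b) and p57 (Cdkn1c) bind cyclin-CDK complexes and block CDK2 and CDK1, and they can also help D-type cyclins assemble with CDK4 and CDK6. The INK4 proteins of this set, p15 (Cdkn2b), p18 (Cdkn2c) and p19 (Cdkn2d), bind CDK4 and CDK6 alone and keep D-type cyclins from joining them. In the intestine, crypt cells divide and leave the cell cycle as they differentiate and move onto the villus, and both families are studied as part of that exit.

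The promoters of Cdkn1b and Cdkn2b are shown because these 2 genes changed by the largest factors, in opposite directions. Each run is the 250 bases upstream of the annotated start in RefSeq (GRCm38.p6), written 5′ to 3′ on the gene's own strand, with the letters of a searched motif in capitals. The Cdkn1b run lies at chr6:134920151-134920400 on the plus strand, and its capitals mark CCAAT at 161 and 35 bases and the GC box GGGCGG at 61 bases upstream of the start. The Cdkn2b run lies at chr4:89311033-89311282 on the minus strand, and its capitals mark the cyclic AMP response element TGACGTCA at 46 bases upstream.

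Cdkn1b: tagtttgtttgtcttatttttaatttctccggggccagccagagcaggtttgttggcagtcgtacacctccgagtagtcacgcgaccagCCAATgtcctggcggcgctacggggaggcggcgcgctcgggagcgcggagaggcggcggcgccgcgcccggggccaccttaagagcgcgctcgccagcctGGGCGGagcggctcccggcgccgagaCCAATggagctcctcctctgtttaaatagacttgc

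Cdkn2b: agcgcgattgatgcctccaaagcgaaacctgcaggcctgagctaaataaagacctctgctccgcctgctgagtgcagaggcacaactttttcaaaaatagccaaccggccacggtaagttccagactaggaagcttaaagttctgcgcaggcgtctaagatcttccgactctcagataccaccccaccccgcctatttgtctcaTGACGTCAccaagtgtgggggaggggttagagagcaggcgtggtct

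Both strands were searched for the GC box GGGCGG, the CCAAT box (CCAAT), the TATA box TATAAA, the cyclic AMP response element TGACGTCA, the E-box CACGTG, the forkhead element TGTTTAC, the SMAD palindrome GTCTAGAC and the E2F element TTTCGCGC. Of 32851 promoters of the same length, 32.7% held GGGCGG, 33.8% held CCAAT and 1.55% held TGACGTCA. RefSeq promoters were matched for 5 of the 6 genes, all but Cdkn1c. GGGCGG occurred at 104 and 46 bases upstream of the second listed start of Cdkn1a, at 95, 51 and 40 bases upstream of the second of Cdkn2c, and at 118, 106 and 38 bases upstream of Cdkn2d, which also held CCAAT at 220 bases. Among the members, TGACGTCA was found in the window of Cdkn2b and in no other. A match is a run of letters and not a bound site.

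Levels are given in FPKM, the fragments of a gene scaled to its transcript length and to the depth of the library, so they can be compared between genes. Total depth was 37381850 to 37537463 fragments in the Control libraries and 35512739 to 37143595 in the MMK-1 libraries. The third MMK-1 library stood apart from the other 2 on the second principal component, which held 4.48% of the variance. Of the intestinal markers, 9 of 10 tested enterocyte markers were lower and 1 was higher with MMK-1, with summed FPKM of 9375 to 9494 in Control and 5357 to 5766 in MMK-1, while all 7 tested stem cell markers (summed FPKM 78.4 to 80.2 against 399 to 426), all 8 proliferation markers (204 to 207 against 323 to 355) and all 7 Paneth cell markers (393 to 435 against 1279 to 1405) were higher. The enterocyte markers Ada and Nt5e were under the filter and untested, at means of 0.281 and 0.0447 FPKM in Control. In MMK-1 their means were higher, at 1.09 and 0.178. Of 8 goblet cell markers 6 were higher and 2 lower (1838 to 1984 against 1980 to 2161), and of 9 enteroendocrine markers 6 were higher and 3 did not pass (269 to 285 against 342 to 365). The 8 tuft cell markers were all under the filter (2.09 to 2.42 against 2.49 to 2.91). None of these markers was at 0 in every library. Immune markers summed to 5.38 to 6.19 FPKM in Control and 1.77 to 2.89 in MMK-1, with Itgax at 0, and mesenchymal and endothelial markers summed to 4.75 to 5.31 and 3.48 to 5.10, against 2362 to 2383 and 1716 to 1867 for 6 general epithelial markers. Cd68 (means of 3.17 in Control and 1.15 in MMK-1) and Itgam (2.36 and 0.938) held most of the immune sum. Ptprc was at 0.00757 and 0.00311. Vim (4.83 and 3.94) held most of the mesenchymal and endothelial sum. Of the epithelial markers 2 were higher, 3 were lower and 1, Epcam, did not pass, with a log2 fold change of -0.0044. Many of these marker levels differed between the groups, as those of the genes below did, and their part in those differences was not tested. In bulk organoid RNA, fewer cells of a type and less RNA per cell cannot be told apart.

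MMK-1-treated organoids held more mRNA of 5 of the 6 CDK inhibitor genes and less of the sixth. All 3 CIP/KIP genes were higher, by 1.54-fold for Cdkn1a, 2.40-fold for Cdkn1b and 2.28-fold for Cdkn1c. The INK4 genes of the set were split: Cdkn2b was lower by 2.34-fold, and Cdkn2c and Cdkn2d were higher by 1.48-fold and 1.35-fold. For each gene the 3 MMK-1 libraries lay on one side of the 3 Control libraries. All 6 passed the filter of a mean of at least 1 FPKM and were tested by limma across the 10551 genes that did, on log2(FPKM + 1), a scale that understates the change of low genes. Cdkn1c, with a Control mean of 0.929 FPKM, reached the filter only through its MMK-1 libraries, so its call is not independent of the filter. At an adjusted p of at most 0.05 these calls were 5 higher and 1 lower, where 48.5% of all tested genes were called higher and 24.7% lower. The share of genes whose groups did not overlap was 50.5% higher and 26.3% lower, so neither a call nor separated groups sets these genes apart from the table. The median log2 fold change of all tested genes was 0.13. The study's cutoffs, a fold of 2 with p of at most 0.05, were taken here on log2(FPKM + 1), so calls need not match the study's. Past them were Cdkn1b among the higher genes, a group that held 3.39% of the tested genes, and Cdkn2b among the lower genes, which held 3.65%. Cdkn1c was not past them on that scale, although its ratio of mean FPKM was 2.28.

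**Figure D1:**
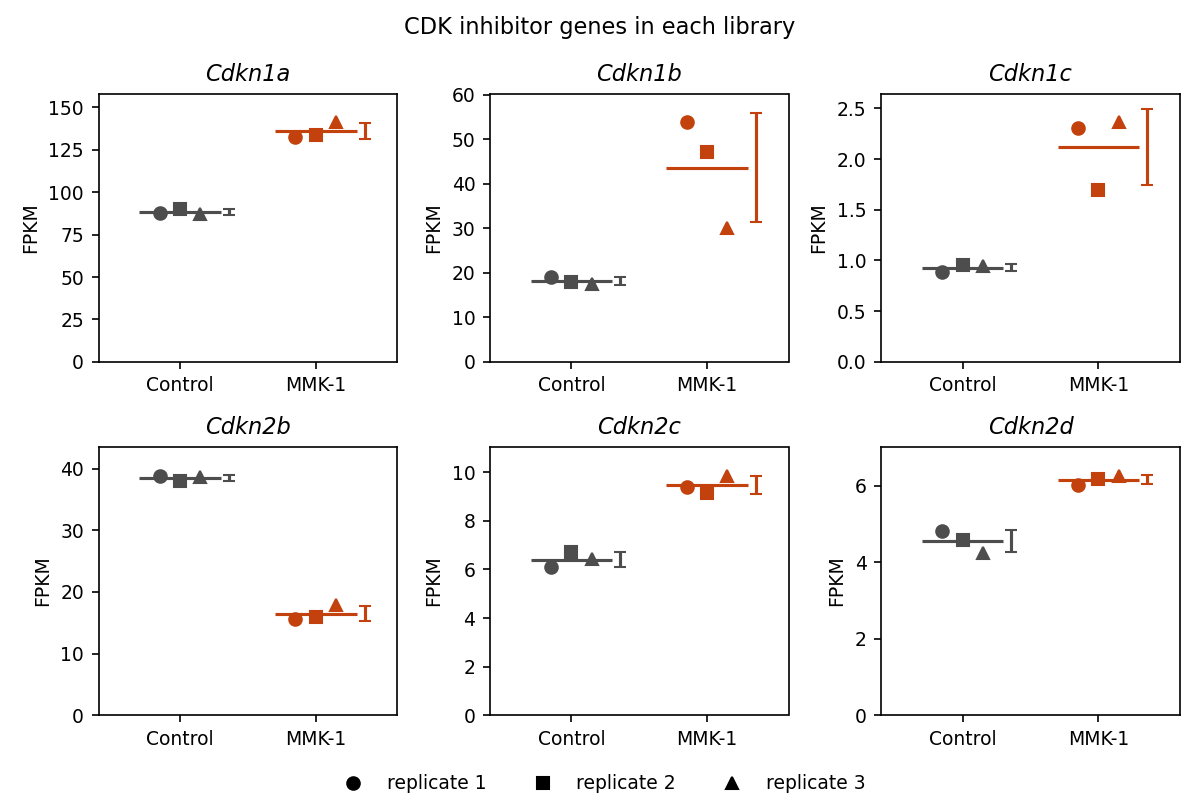
FPKM of each CDK inhibitor gene (vertical axis, from 0, with its own scale in each panel) in the Control and MMK-1 libraries, with the symbol giving the replicate number, the line the mean and the bar beside it the SD (n = 3). The groups do not overlap for any of the 6 genes, Cdkn2b alone is lower with MMK-1, and the MMK-1 libraries spread widest for Cdkn1b, from 30.0 to 53.8 FPKM.

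Cdkn1a encodes p21, the CDK inhibitor best known as a target of p53. Its FPKM was 87.6, 90.4 and 87.4 in Control replicates 1 to 3 and 132.8, 133.7 and 141.2 in MMK-1 replicates 1 to 3. Every MMK-1 library was above every Control library, with 42.4 FPKM between the groups. The means were 88.4 ± 1.66 and 135.9 ± 4.65 (SD, n = 3), and the log2 fold change was 0.61 (SE 0.0404, limma adjusted p = 2.1e-06). It was the most abundant member in both groups, resting on 6650 to 10681 fragments per library. The gene (NCBI Gene 12575, chr17:29090979-29100722, plus strand) shares 273 exon bases with AC167363.2, a gene on the opposite strand that is not in the table, and whether reads were counted by strand is not given in the sources used here.

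Cdkn1b encodes p27, an inhibitor associated with quiescence and cell cycle exit. Its FPKM was 19.1, 17.8 and 17.6 in Control and 53.8, 47.1 and 30.0 in MMK-1. All MMK-1 libraries were above the Control libraries, but the third held 0.595 of the mean of the other 2. The means were 18.2 ± 0.803 and 43.7 ± 12.3 (SD, n = 3), with coefficients of variation of 4.41% and 28.1%, and the log2 fold change was 1.18 (SE 0.176, limma adjusted p = 3.1e-04). Without MMK-1 replicate 3 the log2 fold change was 1.42, and without MMK-1 replicate 1 it was 1.01.

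The same library was the lowest of its group for Cdkn1b and the highest for the other 5 members on the deposited FPKM. After a correction for GC content it was the highest for 1 member, Cdkn2b, and the lowest for 4, Cdkn1a, Cdkn1b, Cdkn2c and Cdkn2d, so of the other 5 only Cdkn2b kept its rank. For Cdkn1a, Cdkn2c and Cdkn2d the gap to the next lowest MMK-1 library was 0.00371 to 0.0461 on the log2 scale. With upper-quartile scaling it was the highest for 4, Cdkn1a, Cdkn1c, Cdkn2b and Cdkn2c, and the lowest for Cdkn1b alone. The longest Cdkn1b transcript (NCBI Gene 12576, chr6:134920401-134925525, plus strand) has a GC content of 43.1%, the lowest of the members, whose others range from 54.4% to 59.4%. On log2(FPKM + 1), MMK-1 replicate 3 lay 0.82 and 0.63 below MMK-1 replicates 1 and 2. After the GC correction these gaps were 0.75 and 0.56, and the library was still 0.51 above the highest Control library. The log2 fold change of Cdkn1b with that correction was 1.01.

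Cdkn1c encodes p57, the imprinted member of the family, expressed mainly from the maternal allele. Its FPKM was 0.887, 0.954 and 0.944 in Control and 2.31, 1.69 and 2.36 in MMK-1, from 64 to 69 and from 117 to 169 fragments. All MMK-1 libraries were above the Control libraries at this low level, and the lowest was the second. The means were 0.929 ± 0.0363 and 2.12 ± 0.374 (SD, n = 3), and the log2 fold change was 0.69 (SE 0.0898, limma adjusted p = 1.4e-04). That value moved with the pseudocount and was 1.10 with a pseudocount of 0.1 and 1.17 by limma-voom on recovered fragments, both past a fold of 2, and 0.56 with the GC correction. The gene (NCBI Gene 12577, chr7:143458339-143461059, minus strand) shares 625 exon bases with the antisense gene Gm44732, which is not in the table, so reads of the pair cannot be told apart without strand.

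Cdkn2b encodes p15, the INK4 inhibitor known for its induction by TGF-beta. Its FPKM was 38.9, 37.9 and 38.7 in Control and 15.6, 15.8 and 17.8 in MMK-1. Every MMK-1 library was below every Control library, with 20.1 FPKM between the groups. The means were 38.5 ± 0.514 and 16.4 ± 1.23 (SD, n = 3), and the log2 fold change was -1.18 (SE 0.0545, limma adjusted p = 2.5e-07). Of all tested genes, 2.39% had a lower log2 fold change. The gene (NCBI Gene 12579, chr4:89306289-89311032, minus strand) was read by 1982 to 2028 fragments in Control and 772 to 923 in MMK-1.

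Cdkn2c encodes p18 and is an E2F-responsive INK4 gene. Its FPKM was 6.09, 6.70 and 6.42 in Control and 9.40, 9.17 and 9.87 in MMK-1, with no overlap. The means were 6.41 ± 0.307 and 9.48 ± 0.359 (SD, n = 3), and the log2 fold change was 0.50 (SE 0.0516, limma adjusted p = 3.2e-05). Cdkn2c (NCBI Gene 12580, chr4:109660876-109666756, minus strand) lies on the same chromosome as Cdkn2b.

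Cdkn2d encodes p19, the remaining INK4 protein of this set. Its FPKM was 4.81, 4.58 and 4.24 in Control and 6.02, 6.17 and 6.26 in MMK-1. The groups did not overlap, and its change was the smallest of the 6. The means were 4.54 ± 0.289 and 6.15 ± 0.121 (SD, n = 3), and the log2 fold change was 0.37 (SE 0.0539, limma adjusted p = 2.8e-04). Cdkn2d (NCBI Gene 12581) lies at chr9:21288459-21291421 on the minus strand. For each member alone, a two-sided exact permutation test of the mean FPKM gave p = 0.1, the smallest that 3 against 3 libraries allow.

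The order of the levels differed between the groups in 1 place. In Control it was Cdkn1a, Cdkn2b, Cdkn1b, Cdkn2c, Cdkn2d and Cdkn1c, from 88.4 to 0.929 FPKM. In MMK-1 Cdkn1b stood above Cdkn2b and the rest of the order was the same, from 135.9 to 2.12 FPKM. No neighbours in either order overlapped across the libraries of a group. The ratio of Cdkn1b to Cdkn2b was 0.455 to 0.491 in Control and 1.68 to 3.45 in MMK-1, with the lowest MMK-1 value in replicate 3. The ratio of Cdkn1b to Cdkn1a was 0.197 to 0.218 in Control, and in MMK-1 it was 0.406 and 0.353 in replicates 1 and 2 but 0.213 in replicate 3, inside the Control range.

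The summed FPKM of the CIP/KIP genes was 107.6 ± 1.62 in Control and 181.7 ± 7.67 in MMK-1 (SD, n = 3). That of the INK4 genes of the set was 49.4 ± 0.303 and 32.1 ± 1.66, since Cdkn2b made up most of it in Control. The CIP/KIP genes took 68.5% ± 0.383 of the summed level of the 6 genes in Control and 85.0% ± 1.19 in MMK-1, and the sum of all 6 was 157.0 ± 1.57 and 213.7 ± 6.16. These sums are descriptions of the same values and carry no test of their own. They follow the most abundant genes, and mRNA levels do not give the amount of each inhibitor protein.

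**Figure D2:**
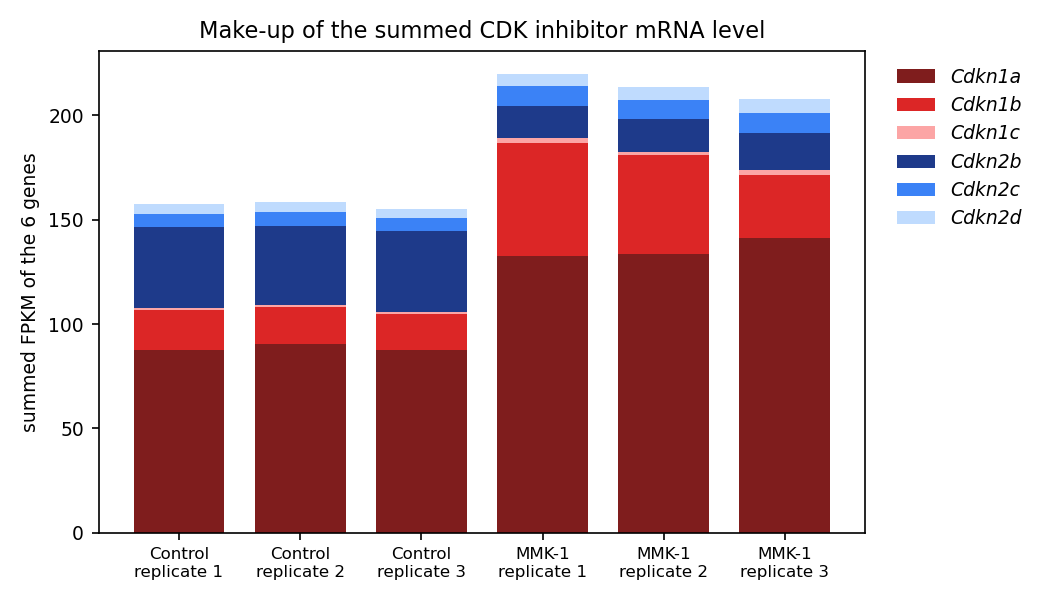
Summed FPKM of the 6 CDK inhibitor genes in each library (bars from 0, CIP/KIP genes in reds, INK4 genes in blues). The bars are taller in all MMK-1 libraries, at 207.6 to 219.9 against 155.3 to 158.3 FPKM, the Cdkn2b segment is smaller, and the Cdkn1b segment is smaller in MMK-1 replicate 3 than in the other MMK-1 libraries.

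The direction of each change was the same under the other ways of scaling and testing. Scaling each library to its upper quartile brought the median log2 fold change of all tested genes from 0.13 to 0.04, and the GC correction brought it to 0.03. The genes called at a fold of 2 then numbered 257 higher and 459 lower with upper-quartile scaling, against 358 and 385. With upper-quartile scaling Cdkn1a was at 0.50, Cdkn2c at 0.40, Cdkn2d at 0.27 and Cdkn2b at -1.29. All 6 kept an adjusted p of at most 0.05 under each of the 13 alternative fits, and the highest was 0.0059 in limma, for Cdkn1b when every gene above 0 was tested.

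**Figure D3:**
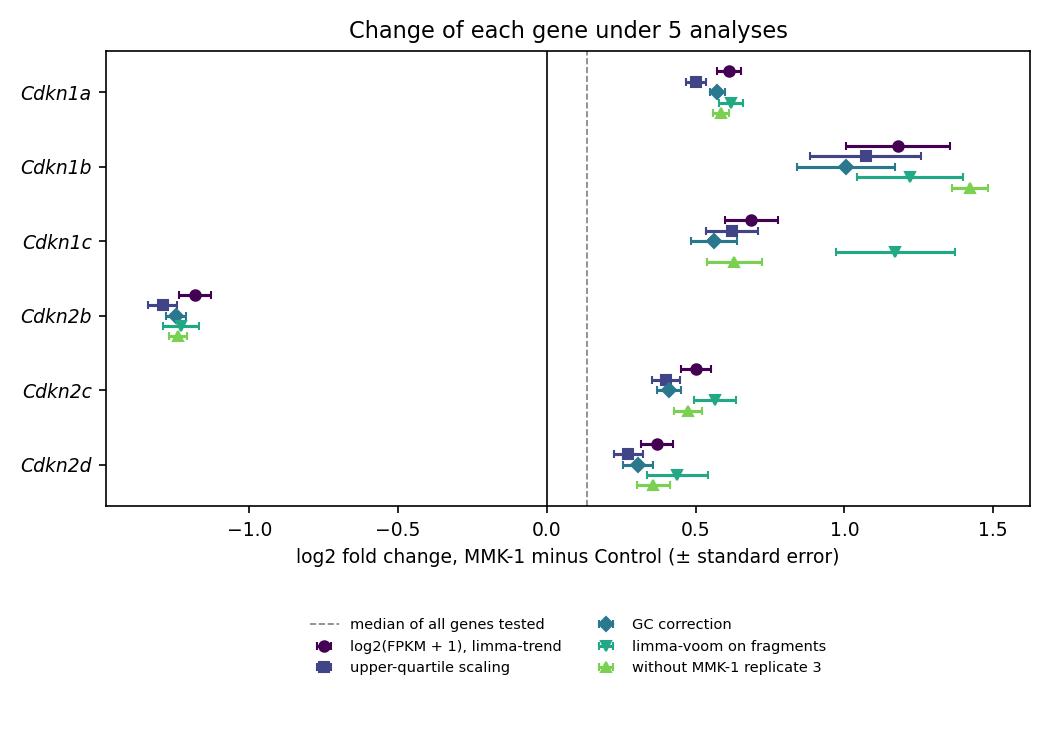
Log2 fold change of each gene, MMK-1 minus Control, with its standard error as the bar, under 5 analyses, with a solid line at 0 and a dashed line at the median of all genes tested (0.13). Cdkn2b lies left of 0 and the other 5 lie right of the dashed line under all 5, and the points of Cdkn1b (1.01 to 1.42) and Cdkn1c (0.56 to 1.17) lie farthest apart.

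The counts below stand beside 48.5% higher and 24.7% lower over all tested genes, or 38.9% and 33.1% with upper-quartile scaling and 39.6% and 34.3% with the GC correction. The tested genes for the kinases and cyclins that the inhibitors bind were all higher with MMK-1. All 5 genes of the CDK4/6 complexes that INK4 proteins act on were higher in the treated organoids, and their median log2 fold change was 0.93. Ccnd1, which encodes cyclin D1, was at 6.17 ± 0.397 FPKM in Control and 19.4 ± 0.467 in MMK-1 (SD, n = 3), a log2 fold change of 1.51. Ccnd2 (0.93) and Ccnd3 (0.56) encode the other D-type cyclins. The kinase genes Cdk6 and Cdk4 had log2 fold changes of 0.97 and 0.61, and the highest limma adjusted p among the 5 genes was 2.5e-04, for Ccnd3. The summed FPKM of the INK4 genes of the set over that of Cdk4 and Cdk6 was 0.402 to 0.418 in Control and 0.169 to 0.172 in MMK-1. Of the INK4 genes in that sum only Cdkn2b was lower with MMK-1, while Cdkn2c and Cdkn2d were higher.

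Of the 8 genes for the CDK2 and CDK1 complexes that CIP/KIP proteins bind, 7 were tested and all 7 were higher, with a median log2 fold change of 0.81. Ccna1, for cyclin A1, was under the filter and untested, at 0.174 to 0.269 FPKM in Control and 0.152 to 0.164 in MMK-1, from 26 to 48 fragments per library. Ccne2, for a cyclin of the G1/S transition, had a log2 fold change of 1.41 (limma adjusted p = 8.6e-05) and Ccna2, for cyclin A2, 1.01 (2.5e-05). With the GC correction the log2 fold changes were 1.00 for Ccne2 and 0.93 for Ccna2. As with Cdkn1b, MMK-1 replicate 3 was the lowest of its group for both. Ccne2 was at 7.82, 8.90 and 4.85 FPKM in MMK-1 replicates 1 to 3 and Ccna2 at 53.6, 54.1 and 40.4. The ratio of Cdkn1a to Cdk2 was 9.04 ± 0.410 in Control and 8.20 ± 0.415 in MMK-1 (SD, n = 3), and the lowest Control value, 8.58, lay next to the highest MMK-1 value, 8.56.

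Downstream of the CDKs, RB pocket proteins hold E2F factors inactive until they are phosphorylated. Of 13 tested genes for these proteins, 10 were higher, 1 was lower and 2 did not pass, with a median log2 fold change of 0.34, and with upper-quartile scaling 9 were higher and 2 lower. Among the 10, E2f7 had a Control mean of 0.972 FPKM and reached the filter only through its MMK-1 libraries. E2f8, an atypical E2F repressor, had a log2 fold change of 0.98 (limma adjusted p = 2.4e-07) and Tfdp1, the common E2F dimer partner, 0.89. Rbl2, which encodes the pocket protein p130 of quiescent cells, fell from 8.63 ± 0.588 to 7.26 ± 0.0988 FPKM, a log2 fold change of -0.22 (limma adjusted p = 0.0060).

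Ubiquitin ligases clear the CIP/KIP proteins, and 8 of their 12 tested subunits were higher, 1 was lower and 3 did not pass. With upper-quartile scaling the split was 5 higher and 3 lower, as it was with the GC correction, a share near that of all tested genes. Cks1b, the SKP2 cofactor for the breakdown of p27, had a log2 fold change of 1.20 (limma adjusted p = 3.5e-06), and Dtl, the substrate receptor that targets p21 during DNA synthesis, 0.97. Rnf123, a ligase subunit for p27 outside S phase, was slightly lower at -0.15 (limma adjusted p = 0.029).

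Of 20 genes for transcriptional regulators of these inhibitors, 11 were higher, 4 were lower and 5 did not pass, with a median log2 fold change of 0.16, near the 0.13 of all tested genes, and with upper-quartile scaling 7 were higher. Hes1, the Notch-induced repressor, had a log2 fold change of 0.64 and Ezh2, the PRC2 methyltransferase, 0.43. The lower genes were led by Mxd1, an antagonist of MYC, at -0.54 (limma adjusted p = 1.4e-05) and Foxo3, a forkhead activator of Cdkn1b, at -0.25 (limma adjusted p = 0.0042).

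Cdkn1a was also set beside 19 other tested p53 target genes. Of these 12 were higher, 2 were lower and 5 did not pass, with a median log2 fold change of 0.29, with upper-quartile scaling 9 were higher and 3 lower, and with the GC correction 11 were higher and 5 lower. Gdf15, a stress cytokine, rose from 8.01 ± 0.233 to 18.8 ± 0.739 FPKM, a log2 fold change of 1.13, and Phlda3, an AKT inhibitor, by 0.99. The death receptor gene Fas and the stress-response gene Sesn1 were lower, at -0.88 and -0.48 (limma adjusted p = 1.3e-04 and 1.8e-05).

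Cdkn1c lies in a cluster of imprinted genes on chromosome 7. Of 6 tested genes around it, 3 were higher, 2 were lower and 1 did not pass, and with upper-quartile scaling 2 were higher. Its neighbour Slc22a18, a transporter gene, was at 38.8, 42.8 and 43.8 FPKM in Control and 19.4, 21.4 and 21.1 in MMK-1, a log2 fold change of -0.99 against 0.69 for Cdkn1c. Phlda2, the next gene, was at 0.82 and Kcnq1, a potassium channel gene, at 0.50. Igf2, the growth factor gene at the other end of the cluster, was at 2.65, 2.94 and 2.75 FPKM in Control and 0.820, 0.688 and 0.685 in MMK-1, and its log2 fold change was -1.13 (limma adjusted p = 7.8e-07), or -1.80 with a pseudocount of 0.1 and -1.93 by limma-voom. With an MMK-1 mean of 0.731 FPKM, Igf2 reached the filter only through its Control libraries, so its call is not independent of the filter.

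**Figure D4:**
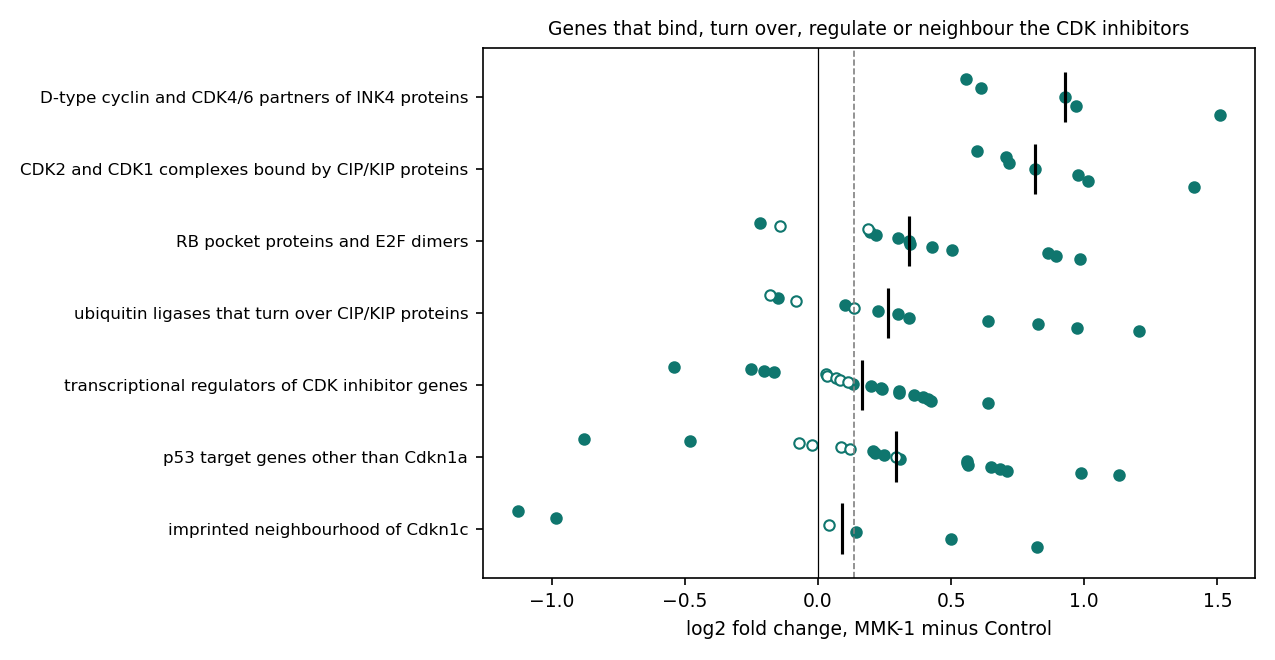
Log2 fold change, MMK-1 minus Control, of each tested gene (points, filled where the limma adjusted p is at most 0.05) in 7 lists of genes that bind, turn over, regulate or neighbour the CDK inhibitors, with the list median as a black bar and the median of all tested genes (0.13) as a dashed line. All tested genes of the 2 lists of kinases and cyclins lie right of the dashed line, and the other lists hold points on both sides.

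For each member the genes with the most similar values were found by the Euclidean distance between log2(FPKM + 1) values, centred on each gene's mean, over the 6 libraries. Genes picked by this distance have fold changes near that of the member by construction. Closest to Cdkn1a were Sumo3, a ubiquitin-like modifier (0.0190), Phf10, a chromatin remodelling subunit (0.0289), and Cdk4 (0.0381), whose log2 fold change was 0.61. Closest to Cdkn2b were Btnl1, a butyrophilin-like protein of the epithelium (0.0504), Pepd, peptidase D (0.0581), and Cdhr2, a cadherin of the microvilli (0.0647). Closest to Cdkn1b were Dek, a chromatin protein (0.103), Ppp1cb, a catalytic subunit of protein phosphatase 1 (0.132), and Depdc1a (0.154). These distances were larger than those for Cdkn1a and Cdkn2b.

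Closest to Cdkn2c were Nck2, an adaptor protein (0.0483), Gmds, an enzyme of fucose synthesis (0.0496), and Csad, an enzyme of taurine synthesis (0.0515). Closest to Cdkn2d were Eml4, a microtubule-associated protein (0.0367), Fam185a (0.0414) and Dis3, an exosome ribonuclease (0.0430). Cdkn1c had Ankrd9 (0.131), Cd99l2 (0.134) and Cachd1 (0.150) as its nearest genes.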

How the data were processed

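RNA-seq libraries were prepared by the authors with a VAHTS Universal V10 kit and sequenced as paired-end reads. The submitters' processing notes name HISAT2, HTSeq, R 3.2.0, DESeq2 and mm10, with no role stated. The authors deposited FPKM per gene and library. Total fragments and whole fragments per gene were recovered from the FPKM steps for all 20676 genes above 0 (tolerance 0.002 fragments). Genes with a mean of at least 1 FPKM were tested on log2(FPKM + 1) by limma 3.58.1 (lmFit, eBayes with trend) in R 4.3.3, with Benjamini-Hochberg adjustment over the 10551 genes tested. The script was tested on simulated data. The GC correction was a loess (span 0.3) on the longest transcript's GC content, known for 98.6% of tested genes. Named genes were the 6 members, the 2 largest changes in each direction per pathway list (all genes of lists of up to 6), and the 3 nearest genes by distance. The members, lists and tests were chosen with earlier results of these data known. No adjustment used the members alone. The alternatives were a pseudocount of 0.1, every gene above 0, upper-quartile scaling, limma-voom on fragments (mean of at least 10), a replicate block, the GC correction, leaving out each library and a fold of 1.5.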

Additional observations from a re-analysis of the deposited data

How the results depend on the processing

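Across 78 comparisons of a member's log2 fold change with an alternative, 78 kept its direction and its side of the adjusted p threshold and 0 reversed. The log2 fold changes ranged from 0.50 to 0.63 for Cdkn1a, from 1.01 to 1.42 for Cdkn1b, from 0.56 to 1.17 for Cdkn1c, from -1.29 to -1.15 for Cdkn2b, from 0.40 to 0.57 for Cdkn2c and from 0.27 to 0.44 for Cdkn2d. Members past a fold of 2 and higher numbered 1, but 2 with a pseudocount of 0.1, 2 with every gene above 0 and that pseudocount, 2 by limma-voom, where Cdkn1c joined Cdkn1b, and 3 at a fold of 1.5. Of all tested genes, 358 were called higher and 385 lower at a fold of 2. The number higher was 676 with a pseudocount of 0.1, 1097 with every gene above 0 and that pseudocount, 1387 by limma-voom, 233 with the GC correction and 1502 at a fold of 1.5, and the number lower was 818, 899 and 855 with every gene and that pseudocount, by limma-voom and at a fold of 1.5. With every gene above 0 at the pseudocount of 1 the numbers were 366 and 394. The cause of the larger and smaller counts was not tested. At adjusted p alone 5118 were higher and 2606 lower, with upper-quartile scaling 4104 and 3495, and with the GC correction 4121 and 3572. Same-numbered libraries did not deviate together (correlations of 0.025, -0.040 and 0.028). With 3 libraries in a group this cannot exclude a pairing, so whether the numbers pair the libraries is not known. A fit with a replicate block called 5 members higher and 1 lower, and 5024 genes higher and 2543 lower at adjusted p. The 3 libraries a group has and the 64 to 69 fragments of Cdkn1c in Control limit the precision.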

Other observations

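H19, a maternally expressed non-coding RNA of the imprinted cluster on chromosome 7 that also holds Cdkn1c, lies at chr7:142575530-142578146, beside Igf2 (RefSeq, GRCm38.p6). It was left out of the tested genes by the filter of a mean of at least 1 FPKM and is named here because of its values. No fragment was counted for it in any of the 3 Control libraries, and 135, 170 and 185 fragments were counted in MMK-1 replicates 1 to 3. Its mean in MMK-1 was 1.97 ± 0.272 FPKM (SD, n = 3), at least 56.2-fold higher than a floor of 3 fragments in each Control library, which covers counting error only. No p is given for it, since it was picked for these values. Igf2 itself was counted in 566 to 630 fragments in Control and 141 to 166 in MMK-1, so the 2 genes differed in opposite directions in every library.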
